A study of Mus musculus with 2 samples.

Results

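The galectins Lgals1, Lgals3, Lgals8 and Lgals9 were followed across the states of splenic regulatory T (Treg) cells and the other cell types that came through the same sort. The 4 genes were taken by symbol from the 31253 genes of the count tables, and were chosen with earlier results of these data known, so their values are given as a description and none of them is tested. They come from 2 droplet single-cell libraries of mouse spleen cells sorted as CD4+Foxp3+. One library pooled 3 Foxp3YFP-Cre Kmt2d+/+ mice (here +/+) and the other pooled 3 Foxp3YFP-Cre Kmt2dfl/fl mice (here fl/fl), in which the histone methyltransferase gene Kmt2d is floxed. Both genotypes carry the YFP-Cre allele, which is expressed from the Foxp3 locus and so acts in cells that have switched on Foxp3; the deleted exons and the age of the mice are not given in the sources used here. With 1 library a genotype there is no spread between replicates. Genotype, pool and library cannot be told apart, and every interval below covers counting error only.

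Galectins are small lectins that bind galactose-containing glycans on glycoproteins. They lack a signal peptide, so they leave the cell by an unconventional route, cross-link receptors at the cell surface, and also act in the cytosol and nucleus. Galectin-1 (Lgals1) is a dimer of single lectin domains that Treg cells are known to make and that dampens effector T cells. Galectin-3 (Lgals3) is the chimeric member that oligomerises through a long amino-terminal tail and is abundant in myeloid cells, while galectin-8 (Lgals8) and galectin-9 (Lgals9) hold a pair of lectin domains on one chain. Galectin-8 marks damaged endosomes for autophagy, and galectin-9 is an interferon-inducible ligand of Tim-3 and of other receptors on T cells.

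The +/+ table held 7947 barcodes with 53680614 unique molecular identifiers (UMIs), and the fl/fl one 8784 barcodes with 63989234 UMIs. The libraries shared 15 barcode sequences. After filtering, 7653 and 8450 single cells were left. Cells were assigned to 20 classes by summed UMIs of marker genes, with no galectin among the markers. Of the single cells, 3943 (51.5%) and 3884 (46.0%) passed the Treg gate, which asked for T cell genes, at least 2 UMIs of Foxp3 or Ikzf2 and at least 8 UMIs over 10 Treg genes. The rest of both sorts held conventional and CD8 T cells, NK cells, B cells and myeloid cells, so the label of the sort covers only a part of the cells in each library. Within the gate, Foxp3 stood at 37.1 CPM (the UMIs of a gene scaled to a class total of 1000000) in +/+ against 26.1 CPM in fl/fl. Kmt2d stood at 69.2 and 66.9 CPM. Since the deleted exons are not given, it is not known whether the counted 3' tags cover them, and this level does not check the deletion.

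Lgals1, the gene of galectin-1, was the member that differed most between the libraries. Over all cells of the Treg gate it stood at 307.3 CPM (95% Poisson interval 300.6 to 314.1; 8028 UMIs) in +/+ and 73.6 CPM (70.6 to 76.7; 2299 UMIs) in fl/fl. The fl/fl library was lower by 4.17-fold, a log2 ratio of -2.06 (95% exact conditional binomial interval -2.13 to -1.99). After each cell was thinned to 2500 UMIs, 28.7% of +/+ Treg cells and 5.34% of fl/fl Treg cells held a Lgals1 UMI (45.7% and 8.99% without thinning; median depth 5691 and 6996.5 UMIs). In follicular B cells, taken as the low reference for this gene, the thinned shares were 3.37% and 1.38% (7.82% and 2.73% without thinning; median depth 4741 and 4258.5 UMIs). Lgals1 was the 1 galectin of 4 at least 1.5-fold lower in fl/fl Treg cells, where 9.62% of the 8047 measured genes (10 CPM or more in either library) were that much lower with an interval excluding 1; none of the 4 was at least 1.5-fold higher, against 2.50% of genes. The call uses total UMIs for scaling. Centring on the median ratio over genes instead, which shifts every ratio by 0.12, put Lgals1 at -1.94 and changed the genes at least 1.5-fold lower and higher from 774 and 201 to 550 and 306.

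Lgals1 was lower in fl/fl in all 6 Treg states, and the gap was widest in resting cells. States were set by the share of effector markers among the effector and resting marker UMIs of a cell: under 0.25 for resting, 0.5 or more for effector, intermediate between, with cycling and interferon-responding cells taken out first. Resting Treg cells, rich in Ccr7, Tcf7 and Lef1, stood at 145.4 CPM in +/+ (1610 cells, 1513 UMIs) against 7.12 CPM in fl/fl (2591 cells, 137 UMIs), 20.4-fold apart (log2 -4.35, -4.61 to -4.10). Of 7758 genes measured in resting cells only 4 had a lower ratio, and 8.88% were at least 1.5-fold lower. The thinned share of resting cells with a Lgals1 UMI was 22.0% in +/+ and 1.31% in fl/fl (40.1% and 2.97% without thinning), so the fl/fl share was no higher than that of fl/fl follicular B cells.

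The other states followed with smaller gaps. Intermediate cells stood at 281.1 and 67.0 CPM (log2 -2.07), and effector cells without a UMI of Klrg1, Il10 or Gzmb at 297.1 and 128.4 CPM (log2 -1.21). Effector cells with such a UMI were at 494.3 and 325.1 CPM (log2 -0.60, -0.76 to -0.45). There, 1299 of 8397 measured genes had a lower ratio, and the median of all measured genes was -0.09. Interferon-responding cells, defined by genes such as Isg15 and Ifit3, stood at 192.8 and 51.0 CPM (log2 -1.92), with 24.7% of the fl/fl UMIs in 1 cell. Cycling cells, defined by Mki67, Top2a and similar genes, held 1114 and 330.8 CPM (log2 -1.75), the most of any Treg state in +/+, while in fl/fl they did not differ from effector cells with Klrg1, Il10 or Gzmb beyond counting error. In no Treg state did the intervals of the 2 libraries overlap. Cycling and interferon-responding cells were not split by the effector score, and their marker mix differed between the libraries. Median effector and resting marker UMIs in cycling cells were 26 and 25.5 in +/+ but 18 and 49 in fl/fl. In interferon-responding cells they were 4.5 and 17 in +/+ and 5 and 33.5 in fl/fl. The part of this mix in the Lgals1 ratios of these 2 states was not tested. Over all measured genes, the share at least 1.5-fold lower was 9.25% in intermediate cells, 8.75% and 11.9% in effector cells without and with Klrg1, Il10 or Gzmb, 10.3% in interferon-responding cells and 6.47% in cycling cells.

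**Figure D1:**
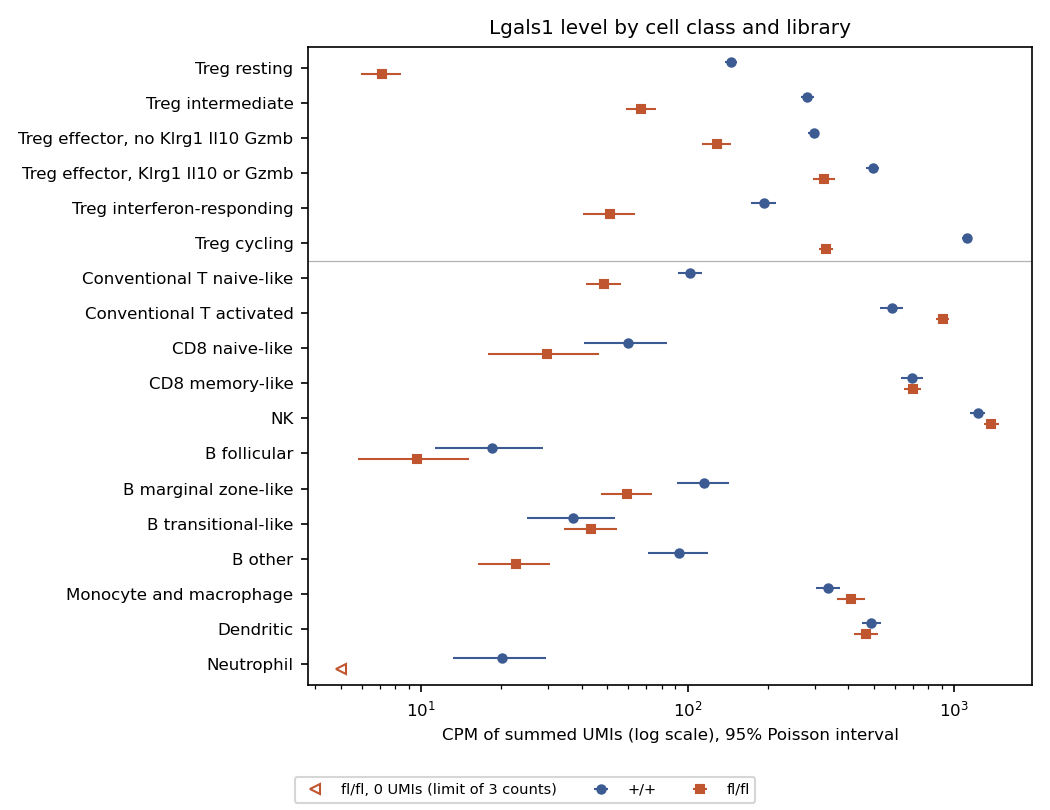
Lgals1 level in CPM of summed UMIs (log axis) in 6 Treg states and 12 other classes with at least 50 cells in each library; circles are +/+, squares are fl/fl, bars are 95% Poisson intervals, and the open triangle is the limit that 3 counts would give where no UMI was found. The fl/fl squares lie left of the +/+ circles in every Treg state, from 7.12 against 145.4 CPM in resting cells to 325.1 against 494.3 CPM in effector cells with Klrg1, Il10 or Gzmb, while NK and activated conventional T cells lie further right in fl/fl.

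The mix of states also differed between the libraries. Resting cells were 40.8% of Treg cells in +/+ and 66.7% in fl/fl, and effector cells without Klrg1, Il10 or Gzmb were 24.5% and 7.98%. Since Lgals1 was lowest in resting cells, the mix moves with the total. With each state given the same weight the Lgals1 log2 ratio was -1.47, and with the weights of the +/+ library it was -1.65, against -2.06 for the cells as they came. Such weights do not even out the resting and effector mix inside the cycling and interferon-responding states. The states are ranges of a score and not separate types: 334 of 3599 scored +/+ cells and 321 of 3541 fl/fl cells lay within 0.05 of the resting limit.

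Along the same score in steps of 0.1, Lgals1 went from 121.1 to 369.2 CPM in +/+ and from 4.85 to 321.1 CPM in fl/fl. In +/+ the level was already 350.2 CPM at a share of 0.3 to 0.4 and stayed between 294.1 and 369.2 CPM above it. In fl/fl it was 46.6 CPM at that step, 161.8 CPM at 0.5 to 0.6 and 321.1 CPM at 0.6 to 0.7, and 166.5 to 204.6 CPM beyond. The log2 ratio thus ran from -4.64 (-5.06 to -4.25) in the cells with the fewest effector markers to -0.14 (-0.36 to 0.08) at 0.6 to 0.7, the one step whose interval included 0, and was -0.82 (-1.14 to -0.51) at 0.9 to 1.

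**Figure D2:**
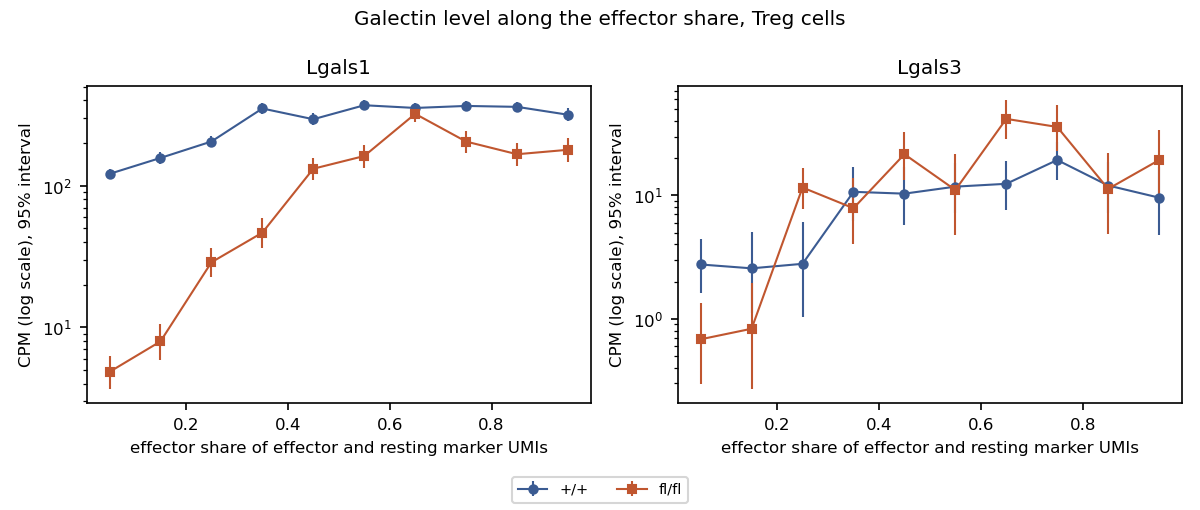
Lgals1 (left) and Lgals3 (right) in CPM (log axis) against the effector share of marker UMIs, in steps of 0.1, for Treg cells outside the cycling and interferon-responding states; bars are 95% Poisson intervals. Lgals1 starts at 121.1 CPM in +/+ against 4.85 CPM in fl/fl and the curves meet within their intervals only at 0.6 to 0.7; Lgals3 is at most 41.8 CPM and its curves cross.

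Cells of the Treg gate were then split by whether they held a Foxp3 UMI. The set without one keeps Treg cells in which Foxp3 went undetected. Because the gate also accepts cells by Ikzf2 alone, other T cells with Ikzf2 UMIs may lie in that set too. Ikzf2 UMIs far outnumbered those of Foxp3 over the gate (+/+: 2229 against 37.1 CPM; fl/fl: 2199 against 26.1 CPM). How the set divides between such cells and Treg cells was not tested. Among the 791 +/+ and 674 fl/fl cells with a Foxp3 UMI, Lgals1 stood at 280.1 and 23.6 CPM, 11.9-fold apart (log2 -3.57, -3.82 to -3.32); 11.8% of genes measured in these cells were at least 1.5-fold lower. Among the 3152 and 3210 cells without one it stood at 314.8 and 85.6 CPM (log2 -1.88, -1.95 to -1.81). In +/+ the 2 sets thus lay close together, whereas in fl/fl the cells without a Foxp3 UMI held the higher level.

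In the states in which fl/fl cells held the most Lgals1, the fl/fl level was also higher without a Foxp3 UMI. The +/+ sets did not lie close together there. Without a Foxp3 UMI, +/+ cycling cells held less Lgals1 and +/+ effector cells with Klrg1, Il10 or Gzmb held more, with intervals apart in both. Of cycling cells with a Foxp3 UMI, 20 in +/+ and 30 in fl/fl, the levels were 1326 and 45.4 CPM (log2 -4.87, -5.40 to -4.38), with 29.4% of the +/+ UMIs and 52.8% of the fl/fl UMIs in 1 cell. Cycling cells without a Foxp3 UMI stood at 1063 and 418.2 CPM (log2 -1.35). Effector cells with Klrg1, Il10 or Gzmb stood at 362.1 and 67.4 CPM with a Foxp3 UMI (83 and 33 cells; log2 -2.42, -3.23 to -1.71) and at 533.0 and 380.8 CPM without one (318 and 172 cells; log2 -0.48, -0.65 to -0.32). Effector cells without Klrg1, Il10 or Gzmb stood at 270.5 and 31.2 CPM with a Foxp3 UMI (log2 -3.12; 12 fl/fl UMIs). Without one they stood at 303.3 and 151.0 CPM (log2 -1.01). Interferon-responding cells stood at 151.4 and 13.1 CPM with one (log2 -3.53; 4 fl/fl UMIs) and at 204.0 and 60.1 CPM without (log2 -1.76). The higher fl/fl level without a Foxp3 UMI was not seen in resting cells. In intermediate cells it could not be judged, because 1 cell held most fl/fl UMIs of the set with one. Resting cells had log2 ratios of -4.13 with a Foxp3 UMI and -4.41 without. Intermediate cells stood at 222.1 and 64.4 CPM with one (log2 -1.79; 56.5% of the fl/fl UMIs in 1 cell) and at 296.6 and 67.7 CPM without (log2 -2.13). Whether the ratios with and without a Foxp3 UMI differ was not tested.

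Markers of other T cells moved with this split in some states and not in others. In effector cells with Klrg1, Il10 or Gzmb but no Foxp3 UMI, 11 genes of activated conventional T cells (Ifng, Ccl5, Nkg7, Tbx21 and others) summed to 2128 CPM in +/+ against 4188 CPM in fl/fl, against 1789 and 1472 CPM in those with a Foxp3 UMI. In cycling cells without a Foxp3 UMI the same list summed to 692.0 and 1067 CPM, against 396.8 and 390.9 CPM with one. Interferon-responding cells went the other way, at 537.5 and 1085 CPM with a Foxp3 UMI and 709.4 and 506.2 CPM without. Over the whole gate the list was lower in fl/fl in both sets, at 726.8 and 441.1 CPM with a Foxp3 UMI and 916.6 and 711.6 CPM without. The 9 NK cell markers in effector cells with Klrg1, Il10 or Gzmb summed to 133.6 and 412.6 CPM with a Foxp3 UMI and to 323.4 and 330.2 CPM without. The 10 Treg genes summed to 6391 and 5670 CPM in these effector cells without a Foxp3 UMI, against 7011 and 6609 CPM in those with one. In effector cells without Klrg1, Il10 or Gzmb they summed to 6068 and 4693 CPM without a Foxp3 UMI. With one, the sums there were 7049 and 7755 CPM. Foxp3 is itself among the 10, so the split bears on these sums. The part of these markers in the Lgals1 levels was not tested.

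**Figure D3:**
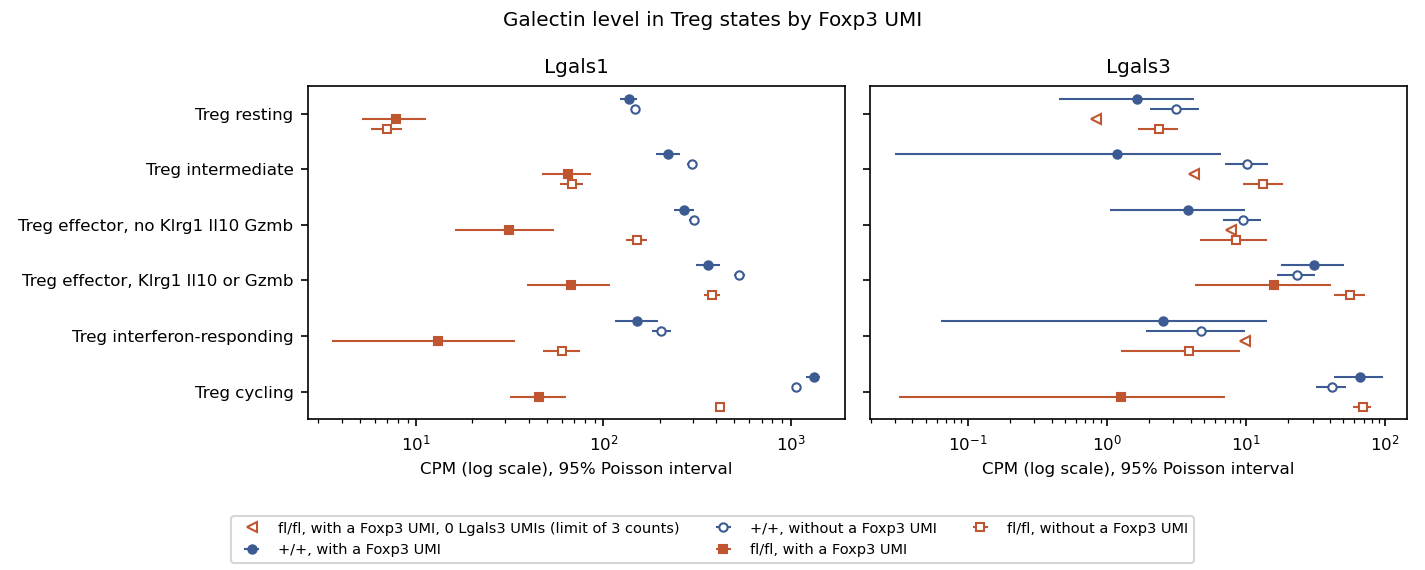
Lgals1 (left) and Lgals3 (right) in CPM (log axis) in the 6 Treg states; filled symbols are cells with a Foxp3 UMI, open symbols cells without, circles +/+, squares fl/fl, bars 95% Poisson intervals, and open triangles the limit of 3 counts where no Lgals3 UMI was found. Filled squares lie far left of filled circles in every state for Lgals1, at 45.4 against 1326 CPM in cycling cells, while open squares reach 418.2 CPM there.

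Outside the Treg gate Lgals1 was not uniformly lower in fl/fl. It was highest in NK cells, 1225 CPM in +/+ against 1378 CPM in fl/fl (log2 0.17, 0.04 to 0.30). Activated conventional T cells stood at 582.0 and 904.1 CPM (log2 0.64, 0.47 to 0.81; 121 and 268 cells), and 2.39% of genes measured there were at least 1.5-fold higher. Memory-like CD8 T cells stood at 693.6 and 698.9 CPM (log2 0.01, -0.16 to 0.18), and dendritic cells at 488.8 and 466.6 CPM (log2 -0.07, -0.26 to 0.12). Monocytes and macrophages were at 336.6 and 410.8 CPM (log2 0.29, 0.06 to 0.52), with 25.5% of the fl/fl UMIs in 1 cell.

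Lower fl/fl levels were found in cells of naive type and in some B cells, and markers of other lineages were lower in several of the same classes. Naive-like conventional T cells stood at 102.4 and 48.5 CPM (log2 -1.08, -1.35 to -0.81), where 3.25% of measured genes were at least 1.5-fold lower, and naive-like CD8 T cells at 59.5 and 29.7 CPM (log2 -1.0, -1.90 to -0.14; 26.3% of the fl/fl UMIs in 1 cell). In naive-like conventional T cells, 8 neutrophil markers summed to 25.2 CPM in +/+ against 13.9 CPM in fl/fl and 9 monocyte and macrophage markers to 16.4 and 6.93 CPM, while 6 B cell markers were at 7.12 and 7.22 CPM. In Treg cells these 3 lists summed to 27.2 and 11.7 CPM, 10.8 and 5.83 CPM, and 16.7 and 8.10 CPM. The neutrophil list was also lower in NK cells (41.9 and 21.7 CPM) and memory-like CD8 T cells (31.0 and 11.7 CPM). Lgals1 there stood far above the naive-like cells, at 1225 and 1378 CPM in NK and 693.6 and 698.9 CPM in CD8 cells. The part of these lists in the Lgals1 levels was not tested. Marginal zone-like B cells stood at 115.2 and 59.3 CPM (log2 -0.96), with 56.6% of the fl/fl UMIs in 1 cell, and B cells of no subclass at 92.8 and 22.7 CPM (log2 -2.03), with 24.6% and 34.9% of the UMIs in 1 cell. Follicular B cells, at 18.5 and 9.67 CPM, had an interval that included 0 (-1.92 to 0.04), as did transitional-like B cells at 37.2 and 43.5 CPM. Neutrophils held 26 UMIs in +/+, 46.2% of them in 1 cell, and none in fl/fl, at least 4.01-fold lower against a floor of 3 counts. Genes at least 1.5-fold lower numbered 407 of 8061 measured in naive-like CD8 T cells and 528 of 7571 in neutrophils. They numbered 375 of 8311 in marginal zone-like B cells and 281 of 8088 in B cells of no subclass. Counted over the 12 classes outside the gate, the Lgals1 interval lay below 0 in 5, above 0 in 3 and on both sides in 4.

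The order of Lgals1 levels changed with the library. In +/+ the levels ran from NK cells through cycling Treg cells, memory-like CD8 and activated conventional T cells to effector Treg cells with Klrg1, Il10 or Gzmb, which did not differ from dendritic cells beyond counting error. Resting Treg cells stood above marginal zone-like B cells and naive-like conventional T cells (145.4, 115.2 and 102.4 CPM). In fl/fl the resting Treg cells, at 7.12 CPM, came below naive-like conventional T cells (48.5 CPM) and next to follicular B cells (9.67 CPM), from which they did not differ beyond counting error.

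On GRCm38, Lgals1 (ENSMUSG00000068220) lies on chromosome 15 at 78926725 to 78930465 on the plus strand, 19.9 Mb from the floxed gene Kmt2d on the same chromosome. Of 82 annotated genes within 1 Mb of Lgals1, 29 were measured in Treg cells, and 12 of these (41.4%) were at least 1.5-fold lower in fl/fl and 0 higher, against 9.62% lower over all genes. In resting Treg cells it was 10 of 28, in naive-like conventional T cells 6 of 28, and in memory-like CD8 T cells 2 of 29 (and 1 higher, Ncf4), where 8.88%, 3.25% and 4.27% of all genes were lower. Apobec3, an antiviral cytidine deaminase, and Cbx7, a Polycomb subunit, were lower in each of the 6 classes examined, which also took in NK cells (6 of 34 lower; 7.60% of all genes; Ncf4 and C1qtnf6 higher) and follicular B cells (4 of 29; 4.62%). A haplotype carried along with the floxed allele and an effect of the deletion cannot be told apart for this region. Outside the Treg gate, the Lgals1 interval itself lay below 0 in 5 of 12 classes, above 0 in 3 and on both sides in 4. A pair of annotated processed pseudogenes, Lgals1-ps1 and Lgals1-ps2, are not features of the table, and reads they could take from Lgals1 were not counted separately.

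Across the 38 class-by-library profiles of at least 50 cells, the genes whose level was most like that of Lgals1 were Bscl2, Pycard, Ahnak, Anxa6 and Slc3a2 (Pearson r of log2(CPM + 1) from 0.86 to 0.82 among 8789 genes). Pycard is the inflammasome adaptor ASC, Ahnak a large scaffold protein and Slc3a2 the heavy chain of amino acid transporters. In resting Treg cells, Ahnak stood at 56.7 CPM in +/+ against 13.3 CPM in fl/fl, and Pycard at 174.8 and 119.7 CPM. The profiles share libraries and depth, so these coefficients are a description. Lgals1 had r = 0.25 with Lgals3 and r = -0.36 with Lgals8.

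Lgals3 (ENSMUSG00000050335; GRCm38 chromosome 14, 47367751 to 47386160, plus strand) belonged to the myeloid cells. Monocytes and macrophages stood at 816.7 CPM in +/+ against 1134 CPM in fl/fl (log2 0.47, 0.33 to 0.61), neutrophils at 501.8 and 616.3 CPM (log2 0.30, 0.11 to 0.48), and dendritic cells at 247.6 and 225.7 CPM (log2 -0.13, -0.41 to 0.14). Memory-like CD8 T cells had the highest level among lymphocytes in +/+ and stood at 113.0 and 70.0 CPM (log2 -0.69, -1.18 to -0.20), with 24.7% of the +/+ UMIs in 1 cell. NK cells stood at 58.9 and 89.7 CPM (log2 0.61, 0.02 to 1.20), in fl/fl next above the CD8 cells and not apart from them beyond counting error, and activated conventional T cells at 39.2 and 61.8 CPM (log2 0.66, with 0 inside the interval). Of all measured genes, 342 of 8002 were at least 1.5-fold lower in memory-like CD8 T cells and 216 of 8775 at least 1.5-fold higher in NK cells. The 4 B cell classes stood between 11.1 and 28.9 CPM in +/+ and between 6.43 and 15.8 CPM in fl/fl. In naive-like CD8 T cells there were 18 UMIs in +/+, 94.4% of them in 1 cell, and 0 in fl/fl.

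In the Treg gate Lgals3 was sparse and its total did not differ between the libraries beyond counting error, 10.2 CPM in +/+ (267 UMIs) against 10.95 CPM in fl/fl (342 UMIs; log2 0.10, -0.14 to 0.34). Thinned cells with a Lgals3 UMI were 1.35% and 1.03% of the gate (2.79% and 1.96% without thinning), between the 0.290% and 0.571% of naive-like conventional T cells (0.575% and 0.846% without thinning; median depth 5088.5 and 4710 UMIs) and the 4.49% and 2.20% of follicular B cells (5.03% and 5.46% without thinning). Resting Treg cells stood at 2.79 and 1.92 CPM, with 34.5% and 56.8% of the 29 and 37 UMIs in 1 cell, and intermediate cells at 8.31 and 10.7 CPM. Cycling cells stood at 45.9 and 52.9 CPM (log2 0.20, -0.16 to 0.58), with 22.9% of the fl/fl UMIs in 1 cell.

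Along the effector share the Lgals3 curves crossed more than once, on few UMIs a step. In the cells with the fewest effector markers the levels were 2.75 CPM in +/+ (17 UMIs) against 0.68 CPM in fl/fl (8 UMIs; log2 -2.02, -3.44 to -0.73). At 0.6 to 0.7 they were 12.4 CPM (20 UMIs) and 41.8 CPM (32 UMIs; log2 1.75, 0.90 to 2.63). Other steps followed no steady course, with log2 ratios of 2.06 at 0.2 to 0.3, -0.44 at 0.3 to 0.4 and -0.09 at 0.8 to 0.9. The effector cells with Klrg1, Il10 or Gzmb were the 1 Treg state in which Lgals3 had an interval off 0, at 25.0 CPM in +/+ (57 UMIs) against 48.7 CPM in fl/fl (69 UMIs), a log2 ratio of 0.96 (0.43 to 1.49). There, 4.68% of measured genes were at least 1.5-fold higher. A single fl/fl cell held 23.2% of these UMIs, and with the richest cell of each library left out the ratio was 0.74 (0.16 to 1.33). The higher value rested on cells without a Foxp3 UMI, at 23.2 and 55.8 CPM (log2 1.26); those with one held 16 and 4 UMIs, a ratio of -0.97 (-3.00 to 0.67). Under a stricter Treg gate it was 0.32 (-0.31 to 0.94). The 9 monocyte and macrophage markers summed to 12.3 and 16.9 CPM in this state, with 2 of 9 at 0 in each library, and the 8 neutrophil markers to 26.3 and 10.6 CPM, with 2 and 3 at 0. In cells without any monocyte or neutrophil marker UMI the ratio was 0.40 (-0.20 to 1.00).

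Over the whole gate, Treg cells with a Foxp3 UMI held 52 Lgals3 UMIs in 17 +/+ cells and 5 in 4 fl/fl cells, 9.24 and 0.83 CPM (log2 -3.48, -5.17 to -2.17). Cells without one held 215 and 337 UMIs, 10.5 and 13.4 CPM (log2 0.35, 0.10 to 0.61). With a Foxp3 UMI, both levels were under the 10 CPM that counts as measured. Of those 52 +/+ UMIs, 26 lay in 3 cycling cells, and 1 cell held 21.2% of the +/+ and 40% of the fl/fl UMIs. Over the whole gate, the fl/fl levels of both Lgals3 and Lgals1 were thus higher in cells in which no Foxp3 was detected, for Lgals3 against only 5 UMIs.

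Over the whole gate, Lgals3 was also found mainly where Lgals1 was. Among thinned +/+ Treg cells, 45 of 1125 with a Lgals1 UMI (4.0%; 95% exact Clopper-Pearson interval 2.93 to 5.32) held Lgals3, against 8 of 2791 without (0.287%). In fl/fl it was 30 of 207 (14.5%; 9.997 to 20.04) against 10 of 3669 (0.273%). In the effector cells with Klrg1, Il10 or Gzmb, 12 of 171 Lgals1-positive +/+ cells (7.02%) and 14 of 51 fl/fl cells (27.5%) held both, while 0 of 229 and 2 of 152 Lgals1-negative cells held Lgals3. Lgals9 and Lgals8 showed no such pairing, with Lgals9 in 17.5% of Lgals1-positive and 15.05% of Lgals1-negative +/+ Treg cells. The pairing of Lgals3 with Lgals1 was not seen in resting cells. There, 4 of 353 Lgals1-positive and 5 of 1252 Lgals1-negative +/+ cells held Lgals3, with overlapping intervals. In fl/fl resting cells it was 0 of 34 and 5 of 2554. Both levels differ by state, and the part of this in the pairing over the gate was not tested.

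Across the 38 profiles the genes most like Lgals3 were Gnb2, Capzb, Pnp, Lmo1 and Taldo1 (r from 0.89 to 0.85). Gnb2 is a G protein subunit, Capzb caps actin filaments, and Pnp and Taldo1 are enzymes of purine salvage and the pentose phosphate pathway. Lmo1, a LIM-domain protein, stood at 0.11 and 0.16 CPM in Treg cells and so was like Lgals3 only through the other classes.

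**Figure D4:**
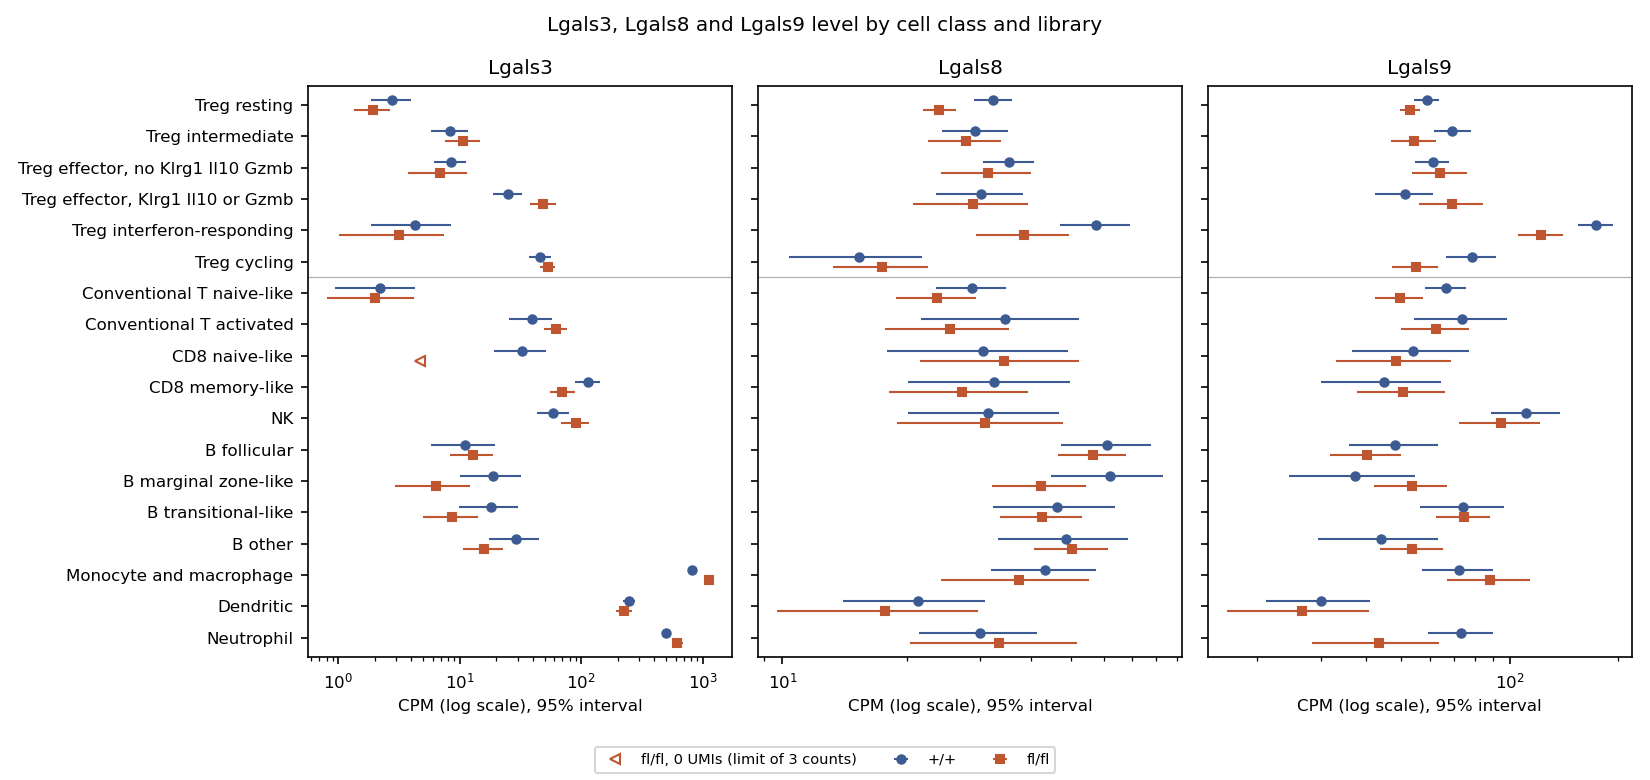
Lgals3, Lgals8 and Lgals9 in CPM (log axes of different range) in 6 Treg states and 12 other classes; circles are +/+, squares fl/fl, bars 95% Poisson intervals, and the open triangle the limit of 3 counts. Lgals3 spans 1.92 CPM in fl/fl resting Treg cells to 1134 CPM in fl/fl monocytes and macrophages, Lgals8 is highest in B cells, and Lgals9 is highest in interferon-responding Treg cells in both libraries.

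Lgals9 (ENSMUSG00000001123; GRCm38 chromosome 11, 78962974 to 78984946, minus strand) was read in every class, and its highest level was in interferon-responding Treg cells. Its promoter is shown because galectin-9 is known as an interferon-inducible gene and this state is defined by interferon-response genes, none of which is Lgals9. The 250 bases before the RefSeq start (GRCm38.p6, chr11:78984925-78985174, minus strand) read, 5' to 3', with a match to the core of an interferon-stimulated response element in capitals:
Lgals9 upstream: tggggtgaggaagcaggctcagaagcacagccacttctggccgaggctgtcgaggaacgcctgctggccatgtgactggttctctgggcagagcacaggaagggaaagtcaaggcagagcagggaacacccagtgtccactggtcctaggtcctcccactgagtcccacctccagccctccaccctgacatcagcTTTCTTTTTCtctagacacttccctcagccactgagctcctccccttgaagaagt
Lgals9 after the start: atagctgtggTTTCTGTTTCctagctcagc
The second line (chr11:78984890-78984919, minus strand) holds another match just after the start, at 16 to 25. The motif was GAAA, any 2 bases and GAAA again, searched on both strands over the 250 bases before and 50 after the start; both matches lie on the reverse strand of the lines as printed, the first at -55 to -46. Of 32851 RefSeq promoter windows of this length, 3.44% hold the motif. Promoter windows were matched for 3 of the 4 members; those of Lgals3 and Lgals8 hold no match to it. Of 4 other motifs searched in the same way, the GC box (GGGCGG, in 35.7% of windows) matched at 2 places, both in Lgals3. An AP-1 motif (TGANTCA, 7.81%), a GAS-like motif (TTC, any 3 bases, GAA; 8.30%) and a kappaB-like motif (GGGA, any 2 bases, TTCC; 1.47%) matched none of the 3 windows. A match describes letters only and shows neither binding nor a cause.

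Interferon-responding Treg cells stood at 172.9 CPM of Lgals9 in +/+ (154.5 to 192.9; 322 UMIs) and 122.2 CPM in fl/fl (105.6 to 140.7; 194 UMIs), a log2 ratio of -0.50 (-0.76 to -0.24). NK cells came next, at 111.3 and 94.4 CPM; they lay below the interferon-responding cells beyond counting error in +/+ and within it in fl/fl. The remaining classes lay between 29.96 and 78.5 CPM in +/+ and between 18.5 and 88.1 CPM in fl/fl, with dendritic cells lowest in +/+ and plasma cells, counted in fl/fl alone, lowest there.

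Over the whole Treg gate Lgals9 stood at 70.0 CPM in +/+ against 58.4 CPM in fl/fl, a log2 ratio of -0.26 (-0.36 to -0.17) where the median of all measured genes was -0.13. Thinned cells with a UMI were 15.8% and 13.8% (32.7% and 34.2% without thinning); follicular B cells, at 12.9% and 8.82% (24.6% and 16.9% without thinning), did not lack the gene and give no background for it. Cycling cells stood at 78.5 and 55.0 CPM (log2 -0.51), intermediate cells at 69.4 and 54.4 CPM (log2 -0.35) and resting cells at 58.9 and 53.0 CPM (log2 -0.15, -0.30 to -0.01), close to the all-gene median there of -0.12. Effector cells with Klrg1, Il10 or Gzmb went the other way, at 51.3 and 69.1 CPM (log2 0.43, 0.03 to 0.83), and effector cells without them stood at 61.2 and 64.2 CPM (log2 0.07, -0.23 to 0.36). None of these states reached a 1.5-fold difference for Lgals9.

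Outside the gate, Lgals9 was lower in fl/fl in naive-like conventional T cells (66.6 and 49.7 CPM; log2 -0.42, -0.71 to -0.14) and in neutrophils (73.5 and 43.4 CPM; log2 -0.76, -1.44 to -0.12), and the intervals of the other 10 classes included 0. In neutrophils, 528 of 7571 measured genes were at least 1.5-fold lower. The genes most like it over the 38 profiles were Rnf114, Usp25, Slfn8, Mov10 and Zcchc2 (r from 0.73 to 0.68). Slfn8 is a Schlafen gene and Mov10 an RNA helicase of antiviral defence. The galectin-3 binding protein Lgals3bp, a secreted glycoprotein that is also interferon-inducible, was high in the same Treg state, at 105.2 and 78.1 CPM in interferon-responding cells against 20.4 and 23.5 CPM in resting cells.

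Lgals8 (ENSMUSG00000057554; GRCm38 chromosome 13, 12439415 to 12464944, minus strand) was the most even of the 4 across classes. It overlaps Heatr1 on the opposite strand, and whether reads were counted by strand is not given in the sources used here. Its highest levels were in B cells, with 61.2 and 56.5 CPM in follicular and 61.9 and 42.2 CPM in marginal zone-like cells, and in +/+ interferon-responding Treg cells at 57.5 CPM; neighbours in this order did not differ beyond counting error. Cycling Treg cells were low, at 15.3 and 17.4 CPM, as were dendritic cells, at 21.3 and 17.8 CPM.

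In the Treg gate Lgals8 stood at 32.8 CPM in +/+ (857 UMIs) against 25.1 CPM in fl/fl (785 UMIs), a log2 ratio of -0.38 (-0.53 to -0.24) against the all-gene median of -0.13. The thinned shares were 8.91% and 6.30% (18.7% and 17.6% without thinning). Resting cells (32.4 and 24.0 CPM; log2 -0.43, -0.64 to -0.23) and interferon-responding cells (57.5 and 38.4 CPM; log2 -0.58, -1.06 to -0.11) had intervals below 0, and the other 4 states had intervals that included it. So did all 12 classes outside the gate, where counts ran from 14 to 111 UMIs a library. Nedd9, Plcl2, Pikfyve, Plekhm1 and Itsn2 were the genes most like Lgals8 (r from 0.80 to 0.74); Pikfyve and Plekhm1 act in endosomes and lysosomes, and Nedd9 is an adhesion docking protein.

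**Figure D5:**
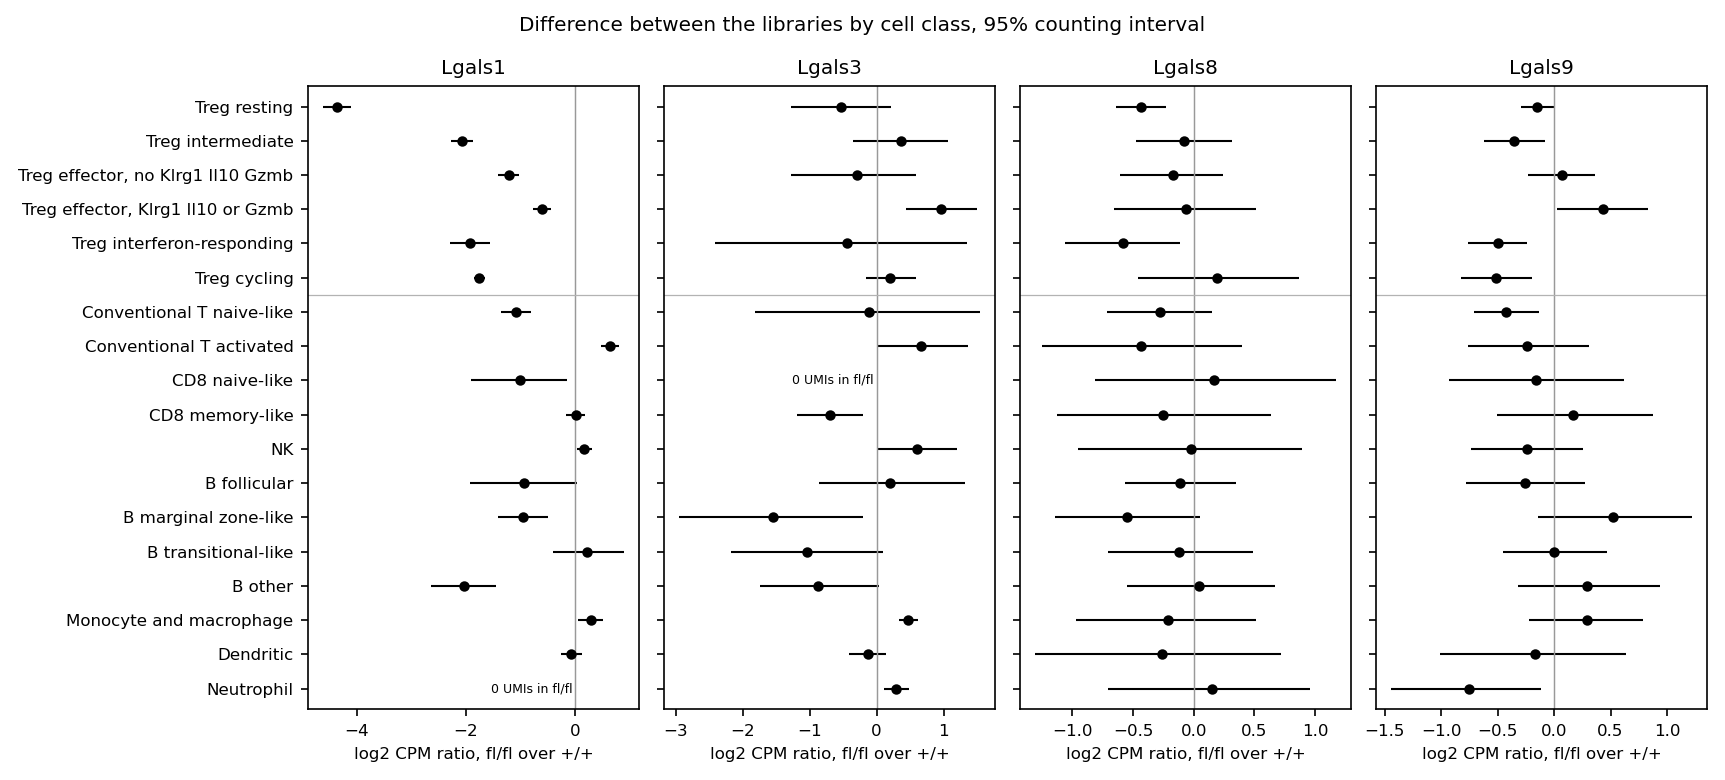
Log2 CPM ratio, fl/fl over +/+, of each galectin (panels with their own range) in 6 Treg states and 12 other classes; points are the ratio of summed counts and bars 95% exact conditional binomial intervals. Lgals1 lies below 0 in all 6 Treg states, from -4.35 to -0.60, and on both sides of 0 elsewhere, while the Lgals8 intervals include 0 in 16 of 18 classes.

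Galectins act through glycoproteins, and 27 binding partners and counter-receptors were taken as a list. Ctla4 of this list is also a gene of the Treg gate, and Cd44 and Tnfrsf9 are among the effector markers that set the states. The choice of cells thus bears on the levels of these genes, and the counts below include them where measured. Of the 24 measured in Treg cells, 10 were at least 1.5-fold lower in fl/fl and 0 higher, against 9.62% and 2.50% of all measured genes, with a median log2 ratio of -0.32 beside -0.13 for all genes. Nrp1, a semaphorin receptor of thymus-derived Treg cells, stood at 259.2 and 68.0 CPM (log2 -1.93), the checkpoint receptor gene Pdcd1 at 42.6 and 17.6 CPM (log2 -1.28), Cd7 at 16.7 and 7.08 CPM (log2 -1.23) and the integrin chain gene Itgal at 237.5 and 112.1 CPM (log2 -1.08). At the other end stood Cd69, an activation marker, at 291.1 and 370.9 CPM (log2 0.35), the glutamine transporter gene Slc1a5 (log2 0.21), and the lysosomal genes Lamp1 (0.09) and Lamp2 (0.07), none of them 1.5-fold apart. Havcr2, which encodes Tim-3, was under 10 CPM at 2.07 and 3.07 CPM. In resting cells 4 of 23 measured partners were lower and 0 higher, where 8.88% and 2.69% of all genes were. The 4 were Nrp1 (143.2 and 44.3 CPM; log2 -1.69), Cd7 (18.4 and 6.08 CPM; log2 -1.59), Tnfrsf25 (30.7 and 15.6 CPM; log2 -0.98) and Itgal (154.2 and 86.8 CPM; log2 -0.83).

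The enzymes that build galectin ligands gave 21 measured genes of 30 in Treg cells, with 5 at least 1.5-fold lower and 1 higher, against 9.62% and 2.50% of all measured genes. Their median log2 ratio was -0.20 beside -0.13 for all genes. Mgat5, which starts the N-glycan branch that galectins bind best, stood at 230.9 and 122.6 CPM (log2 -0.91), and B3gnt2, which extends it with poly-N-acetyllactosamine, at 39.5 and 20.9 CPM (log2 -0.92). The sialyltransferase genes St3gal2 (22.6 and 10.2 CPM; log2 -1.15) and St3gal1 (76.9 and 46.5 CPM; log2 -0.73) were lower, and St3gal6 was higher (7.54 and 13.8 CPM; log2 0.88). St3gal3 (0.37), C1galt1, which makes the core of mucin-type O-glycans (0.15), and Man2a1 (0.12) had ratios above 0 under 1.5-fold. In resting cells 5 of 22 measured enzymes were lower and 1 higher, against 8.88% and 2.69% of all genes.

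Of 7 further family genes in the table, Lgals3bp alone reached 10 CPM over the whole Treg gate (32.8 and 28.7 CPM; log2 -0.19). Lgalsl, a galectin-like gene, stood at 3.48 and 7.21 CPM over the gate. In effector cells it was higher, at 7.15 and 14.2 CPM (39 and 29 UMIs) without Klrg1, Il10 or Gzmb and at 6.57 and 20.5 CPM (15 and 29 UMIs) with them. In resting cells it stood at 0.77 and 4.78 CPM (8 and 92 UMIs). Over the gate, Lgals4 stood at 1.53 and 1.38 CPM and Lgals7 at 1.42 and 0.29 CPM, and Lgals2 had 0 UMIs in both libraries.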

How the data were processed

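Raw UMI counts per gene and barcode were deposited for each 3' library (10x, version 3.1 chemistry, per the labels' protocols), with no normalization. Cell Ranger 7.1.0, Seurat 4.1.1 and fastp appear in the submitters' processing notes, as do mm10 and GRCm38; cell filters of the submitters are not given in the sources used here.

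Barcodes under 500 genes or over 10% mitochondrial UMIs were left out. The automatic threshold of Scrublet (scanpy 1.11.5) called 0% and 0.0232% of barcodes and had not worked, so Otsu's threshold was used (137 and 184 doublets). Barcodes with markers of 2 lineages (98 and 104) and those in no class (1539 and 1422) entered no class. Marker limits were set after the data were seen. The members and lists were chosen with earlier results of these data known.

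UMIs were summed over the cells of a class and divided by the class total (CPM). Intervals (95%) are exact Poisson for levels, exact conditional binomial for log2 ratios and exact Clopper-Pearson for shares, computed with scipy 1.17.1. The calling of ratios was tested on simulated data, drawn with the counting error that the intervals assume. The simulation held no spread between cells or mice and so does not check the calls against it. With 1 library a genotype there was no test across samples. Thinning left out 187 and 219 single cells under 2500 UMIs. Alternatives covered scaling, thinning, doublets, cell filters, the Treg gate, clusters, state weights and the level that counts as measured. The text names the 4 members, the 5 genes most like each, up to 4 members a list with the largest ratios each way, Kmt2d and Foxp3; Havcr2, Tnfrsf25, Apobec3, Cbx7, Ncf4, C1qtnf6 and the other family genes were named after their values were seen.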

Additional observations from a re-analysis of the deposited data

Results flagged for a closer look

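Lgals1 moved in opposite directions in Treg cells and in 3 other classes. Against a log2 ratio of -2.06 in Treg cells, it was 0.64 in activated conventional T cells, 0.17 in NK cells and 0.29 in monocytes and macrophages, each with a counting interval above 0. Lgals9 had a ratio of 0.43 in effector Treg cells with Klrg1, Il10 or Gzmb, against -0.15 in resting, -0.35 in intermediate, -0.50 in interferon-responding and -0.51 in cycling Treg cells. With 1 library a genotype, the difference between these ratios was not tested.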

How the results depend on the processing

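The direction of the Lgals1, Lgals8 and Lgals9 log2 ratios in Treg cells was the same under every alternative run, and Lgals1 stayed at least 1.5-fold lower. Beside the main -2.06, Lgals1 was -1.94 when centred on the median ratio over genes, -2.29 thinned, -3.57 in cells with a Foxp3 UMI, -2.20 under a stricter gate, -1.81 in clusters made mostly of gated Treg cells, and -1.47 and -1.65 with states weighted alike and by the UMIs of +/+. In resting cells it was -3.98 with doublets kept and -4.64 with the limit at 0.1, against -4.35. Lgals9 was -0.14 under the median scaling and -0.15 in cells with a Foxp3 UMI, where its interval included 0. Lgals3 in Treg cells was -3.48 in cells with a Foxp3 UMI, where it was under 10 CPM in both libraries, and 0.39 with states weighted alike. In effector cells with Klrg1, Il10 or Gzmb, Lgals3 was 1.70 thinned, 0.32 under the stricter gate, 0.40 in cells without monocyte or neutrophil marker UMIs and -0.965 in cells with a Foxp3 UMI. Genes at least 1.5-fold higher numbered 306 under median scaling, 332 in cells with a Foxp3 UMI and 119 at a minimum of 20 CPM, against 201. The cause of these shifts was not tested. The alternatives for resting and effector cells, and the weights of +/+, were chosen after seeing the data. Of 160 class levels, 110 stayed within their interval when thinned. Of 160 shares of cells with a UMI, 36 stayed within the interval of the thinned share without thinning, and 124 moved. No paired analysis was possible because each genotype has 1 library. Depth limits Lgals3 in Treg states, where totals were as low as 5 UMIs.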
